A study of Mus musculus with 10 samples.

Results

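The TGF-beta and activin signaling genes described here are 10 of the 27267 genes listed by symbol in the deposited table of brown fat transcripts, and they were taken by name as genes of the pathway, with earlier results of these data known. They comprise the ligand genes *Tgfb1*, *Tgfb2* and *Tgfb3*, the activin subunit genes *Inhba* and *Inhbb*, the receptor genes *Tgfbr1*, *Tgfbr2* and *Tgfbr3*, and the SMAD genes *Smad2* and *Smad3*. RNA was measured by sequencing in interscapular brown adipose tissue (iBAT), the thermogenic fat between the shoulder blades, of C57BL/6 mice labelled male and 4 weeks of age on a chow diet. One group held 5 wild-type libraries, and the other held 5 libraries labelled *Mgp*-KO. The study's methods describe the latter mice as global knockouts of matrix Gla protein (*Mgp*) and list the allele B6.129S7-Mgptm1Kry/KbosJ. *Mgp* encodes a vitamin K-dependent matrix protein known as an inhibitor of bone morphogenetic proteins, the relatives of TGF-beta, and the comparison asks how the genes of the TGF-beta and activin branch stood in iBAT of the group so labelled. The allele is global, so the state of other organs cannot be told apart from that of the fat itself, and nothing in the labels says whether the replicates came from separate litters or cages. P-values therefore measure the spread between these libraries.

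Before the results, 4 libraries need a remark. *Mgp* itself had 576, 489, 466, 1146 and 839 normalized counts (reads divided by a size factor for each library) across the wild-type libraries 1 to 5, against 0, 0.765, 0.821, 500.2 and 331 across those labelled *Mgp*-KO 1 to 5. The libraries labelled *Mgp*-KO 4 and 5 thus went against their label, and the *Xist* level of wild type 2 (5094 normalized counts, against at most 44.0 elsewhere) went against the male label. *Acta1* and other skeletal muscle markers, 10 genes in all, summed to 48949.5 and 42317 normalized counts in the libraries labelled *Mgp*-KO 2 and 5, against at most 7421 in the others. Replicates 1 to 3 and replicates 4 and 5 also formed separate sets: the former held 19616366 to 22252260 reads on genes with 0.771% to 1.72% on mitochondrial ribosomal RNA, and the latter 9253793 to 13281873 reads with 6.50% to 16.7%. All labels were kept, and each comparison was also made within the sets and without the libraries labelled *Mgp*-KO 4 and 5. All 10 brown adipocyte markers, among them *Ucp1* and *Adipoq*, were detected in every library, and 9 of the 10 had a negative log2 difference from wild type. Limma called 0 of them with all 10 libraries (0.0656% of all genes) and 3 when the sets were a term (2.36%). It called 1 of them without the libraries labelled *Mgp*-KO 4 and 5, where 267 of 13714 genes were called. The sum of the 10 markers was lower in the libraries labelled *Mgp*-KO without overlap in each set: 229060.0 to 248519 normalized counts against 160012 to 194223 in replicates 1 to 3, and 403934 to 415834 against 203431 to 297921 in replicates 4 and 5.

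TGF-beta ligands are secreted as latent dimers that have to be released from the matrix before they bind. The active ligand binds the type II receptor TGFBR2, which recruits and phosphorylates the type I receptor TGFBR1, and this kinase phosphorylates SMAD2 and SMAD3, which enter the nucleus with SMAD4. Activins, which are dimers of inhibin beta subunits, use receptors of their own but the same SMADs, and signaling through SMAD3 is known in adipose tissue for restraining adipocyte differentiation and the thermogenic program.

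Promoters were matched for 7 of the 10 genes in RefSeq (GRCm38.p6): *Tgfb1*, *Tgfb2*, *Tgfbr1*, *Tgfbr2*, *Smad3*, *Inhba* and *Inhbb*. *Tgfb3*, *Tgfbr3* and *Smad2* were not matched. The 250 bases before the start site are shown for the 3 ligand genes whose highest value lay in the same library (*Tgfb1*, *Inhba* and *Inhbb*) and for *Tgfbr2*, the gene with the clearest difference between the sets of libraries. They are written 5′ to 3′ on the gene's own strand, from chr7:25686752-25687001 (plus strand) for *Tgfb1*, chr13:16011601-16011850 (plus) for *Inhba*, chr1:119422249-119422498 (minus) for *Inhbb* and chr9:116175364-116175613 (minus) for *Tgfbr2*. Capitals mark every match, on either strand, to CAGAC (the core of the SMAD-binding element), TGACTCA (the AP-1 site), TGACGTCA (the cAMP response element), TATAAA (the TATA box) and GGGCGG (the GC box bound by SP1).
Tgfb1: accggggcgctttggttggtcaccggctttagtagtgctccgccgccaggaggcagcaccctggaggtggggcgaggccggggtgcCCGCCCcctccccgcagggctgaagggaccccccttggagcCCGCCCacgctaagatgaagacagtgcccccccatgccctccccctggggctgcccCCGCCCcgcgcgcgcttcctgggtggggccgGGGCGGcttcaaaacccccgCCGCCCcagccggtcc
Inhba: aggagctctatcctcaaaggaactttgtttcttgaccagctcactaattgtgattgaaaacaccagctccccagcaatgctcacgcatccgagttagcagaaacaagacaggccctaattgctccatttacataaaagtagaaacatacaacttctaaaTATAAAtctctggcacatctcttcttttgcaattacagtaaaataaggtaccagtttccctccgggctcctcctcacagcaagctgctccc
Inhbb: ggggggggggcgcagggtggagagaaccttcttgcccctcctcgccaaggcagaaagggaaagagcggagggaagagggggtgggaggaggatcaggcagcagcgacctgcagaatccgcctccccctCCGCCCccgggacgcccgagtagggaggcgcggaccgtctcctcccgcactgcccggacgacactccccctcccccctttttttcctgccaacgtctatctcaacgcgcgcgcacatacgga
Tgfbr2: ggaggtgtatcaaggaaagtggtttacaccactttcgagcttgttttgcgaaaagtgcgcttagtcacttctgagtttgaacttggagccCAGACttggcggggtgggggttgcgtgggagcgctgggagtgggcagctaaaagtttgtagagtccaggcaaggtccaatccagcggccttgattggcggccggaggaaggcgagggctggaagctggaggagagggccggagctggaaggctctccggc

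The ligand promoters differed in composition. G and C made up 75.2% of the *Tgfb1* window, 68.0% of the *Inhbb* window, 58.4% of the *Tgfbr2* window and 43.2% of the *Inhba* window. The *Tgfb1* window held 5 matches to the GC box, *Inhbb* held 1, and *Smad3* and the first of the *Tgfbr1* windows (RefSeq gives that gene 2 start sites) held 2 each, a motif found in 32.7% of the 32851 windows of the same length in the reference table. *Inhba* held 1 match to the letters TATAAA, 91 bases before the start site, *Tgfb2* held 1 at 31 bases, and 12.4% of all windows hold one. The SMAD-binding core occurred 1 time in the *Tgfbr2* window, 1 time in the second *Tgfbr1* window and 2 times in that of *Tgfb2*, and 42.2% of all windows hold it. Its letters were not in the windows of *Tgfb1*, *Smad3*, *Inhba* and *Inhbb*, and those of the AP-1 site (4.46% of all windows) and the cAMP response element (1.55%) were in none of the 7 genes' windows. Such matches describe the letters of the window and are not evidence of binding.

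*Tgfbr2* and *Tgfbr3* were the most abundant of the 10 transcripts. To compare genes, the normalized count was divided by the length of the gene's merged exons in GENCODE vM21, which gives a level per kilobase. In wild type, *Tgfbr2* stood first at 488 ± 120.4 per kilobase (mean ± SD, n = 5), followed by *Tgfbr3* at 262 ± 59.2 and *Tgfb1* at 91.8 ± 24.5. These 3 ranges did not overlap. *Smad3* (61.4 ± 21.0), *Tgfbr1* (54.5 ± 12.4) and *Smad2* (49.9 ± 2.87) came next with overlapping ranges, so their order is not resolved by these libraries, and the lowest *Tgfb1* library also fell within the ranges of *Smad3* and *Tgfbr1*. *Tgfb3* followed at 34.7 ± 7.78, below *Smad2* in every wild-type library, with a range that held the lowest *Smad3* and *Tgfbr1* libraries. *Tgfb2* (8.71 ± 5.17) and *Inhbb* (4.72 ± 0.819) overlapped, and *Inhba* was the lowest at 1.49 ± 0.960, below *Inhbb* in all 5 libraries. Per length, the type II receptor thus stood above its type I partner in every library, and *Tgfb2* and the activin subunits were the scarcest of the 10 transcripts.

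**Figure D1:**
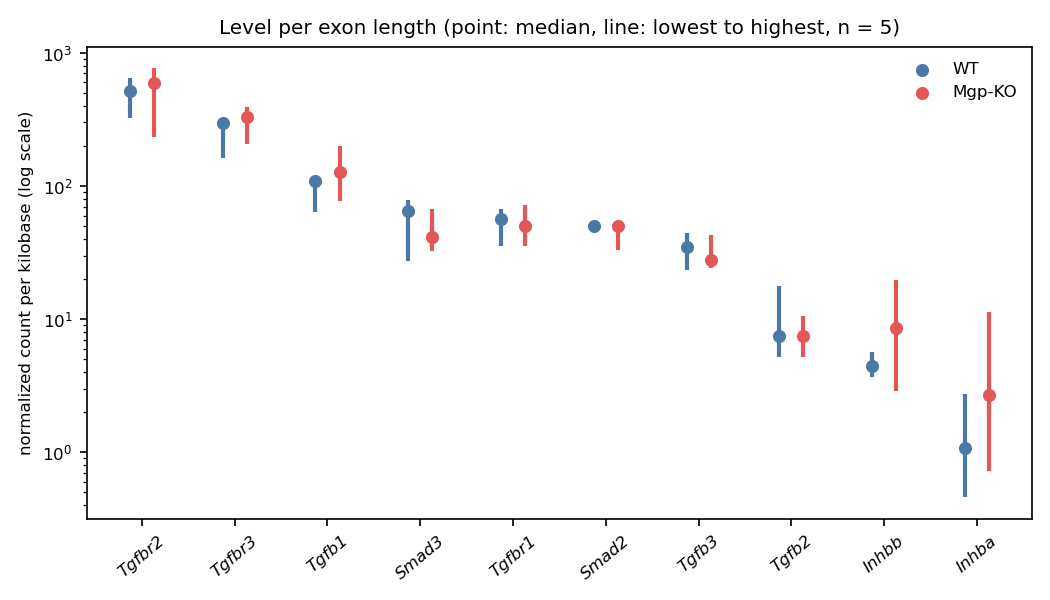
Level per kilobase of merged exon length (log axis, normalized count per kilobase) for the 10 genes in the order of their wild-type means; points are medians and lines run from the lowest to the highest of 5 libraries, blue for wild type and red for the libraries labelled *Mgp*-KO. The receptors *Tgfbr2* and *Tgfbr3* stand highest and *Inhba* lowest in both groups.

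None of the 10 genes separated wild type from the libraries labelled *Mgp*-KO. Differences were tested with limma on log2(normalized count + 1) over the 13714 genes whose normalized counts averaged 10 or more, and all 10 genes passed this filter. None was called at an adjusted p under 0.05, where 0.0656% of all genes tested were called (9 genes). The adjusted p ranged from 0.599 to 0.992, and none of the 10 had an unadjusted p under 0.05 in limma. EdgeR and DESeq2 on the recovered reads called none either, against 0.0219% and 2.26% of all genes. *Inhba* and *Inhbb* were under an unadjusted p of 0.05 in each, as were 1569 of 13714 genes in edgeR and 2156 of 27122 in DESeq2. With a term for the sets in the model, none of the 10 was called by limma (2.36% of all genes), edgeR (2.49%) or DESeq2 (7.42%). The groups overlapped for every one of the 10, whereas 3.50% of all genes tested had groups that did not. Over the 10 genes, the libraries labelled *Mgp*-KO had a higher mean log2 level than wild type in 4 and a lower one in 6. The median difference was -0.02, against 0.03 over all genes tested. *Inhba* passed the filter on low values only through the libraries labelled *Mgp*-KO, since its wild-type mean was 9.55 ± 6.13 (SD, n = 5). In bulk tissue, fewer cells of a type and less RNA per cell cannot be told apart.

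**Figure D2:**
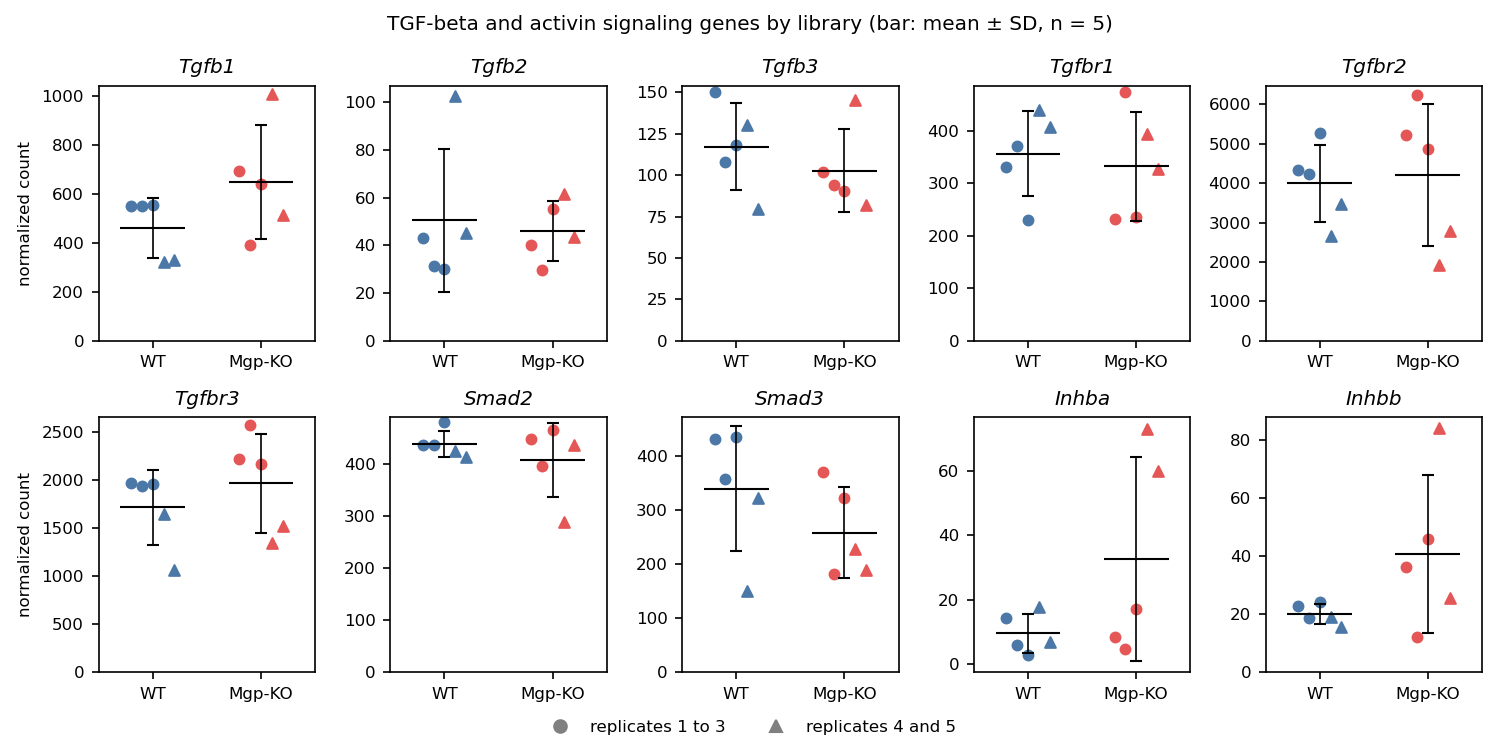
Normalized count of each of the 10 genes in every library; circles are replicates 1 to 3, triangles replicates 4 and 5, and the bars give mean ± SD (n = 5). The groups overlap in every panel, and the library labelled *Mgp*-KO 4 holds the highest *Tgfb1*, *Inhba* and *Inhbb* values.

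Among the ligands, *Tgfb1* (chr7:25687002-25705077, plus strand, mm10) encodes the main TGF-beta of immune and endothelial cells and of the matrix store. It had 551, 551, 557, 322 and 332 normalized counts across the wild-type libraries 1 to 5, against 696, 391, 643, 1008 and 515 across those labelled *Mgp*-KO 1 to 5. Wild type 1 to 3 lay within a few counts of each other, wild type 4 and 5 were lower, and the library labelled *Mgp*-KO 4 was the highest of all, while *Mgp*-KO 2 lay below the 3 highest wild-type values. The difference on the log2 scale was 0.46 (95% confidence interval -0.14 to 1.06, limma adjusted p = 0.599), and a two-sided exact permutation test over the 5 and 5 libraries gave p = 0.143, where the smallest p it allows is 0.00794. Without the library labelled *Mgp*-KO 4 the difference was 0.29.

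*Tgfb2* (chr1:186622792-186705989, minus strand), the isoform that depends most on betaglycan for receptor binding, was low in iBAT. It had 42.9, 31.4, 30.1, 103 and 45.0 normalized counts across the wild-type libraries 1 to 5, against 39.9, 29.8, 55.0, 61.5 and 43.4 across those labelled *Mgp*-KO 1 to 5. Wild type 4 was the highest library, and the other 9 lay between 29.8 and 61.5. The log2 difference was -0.02 (-0.79 to 0.75), and it had the opposite sign without wild type 4 (0.27), so no direction is given. The exons of *Tgfb2* overlap the antisense gene *Gm29491*, and the strand setting of the counting was not given in the sources used here.

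*Tgfb3* (chr12:86056745-86079041, minus strand) encodes the third isoform, known from epithelial and mesenchymal development. It had 150.2, 108, 118, 130.5 and 79.6 normalized counts across the wild-type libraries 1 to 5, against 102, 94.1, 90.3, 146 and 82.1 across those labelled *Mgp*-KO 1 to 5. The groups overlapped over all 10 libraries, with a log2 difference of -0.19 (-0.69 to 0.31). Its exons overlap the opposite-strand genes *Gm37804* and *Gm48008*.

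The balance of the isoforms was described by the share of each in their summed level per kilobase. *Tgfb1* made up 67.3% ± 8.49 of the 3 isoforms in wild type and 76.4% ± 3.65 in the libraries labelled *Mgp*-KO (SD, n = 5 each). By library the *Tgfb1* share read 67.8%, 74.6%, 73.3%, 53.2% and 67.8% over wild-type libraries 1 to 5, against 78.9%, 70.2%, 77.9%, 78.8% and 76.3% in those labelled *Mgp*-KO. Only the library labelled *Mgp*-KO 2 lay within the wild-type range, which ended at 74.6%. The *Tgfb3* share was 25.8% ± 4.12 in wild type and 18.8% ± 3.65 in the other group, and the *Tgfb2* share 6.90% ± 4.74 and 4.84% ± 0.832. These shares are a description and were not tested. They depend on the length used, because the merged exons of *Tgfb1* (5042 bases) are much longer than its longest transcript (2573 bases).

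**Figure D3:**
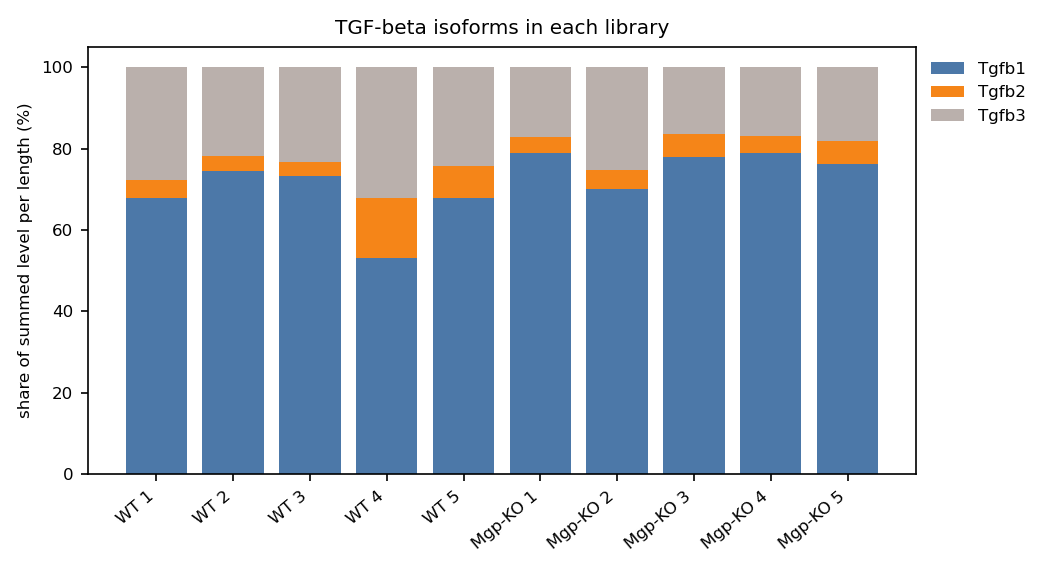
Share of *Tgfb1*, *Tgfb2* and *Tgfb3* (percent of their summed normalized count per kilobase) in each of the 10 libraries, as stacked bars. *Tgfb1* takes the largest share in every library, the lowest being 53.2% in wild type 4.

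The activin subunits had the largest fold differences of the 10 genes and the fewest reads. *Inhba* (chr13:16011851-16031621, plus strand), which encodes the beta A subunit of activin A, had 14.3, 5.99, 2.94, 17.6 and 6.92 normalized counts across the wild-type libraries 1 to 5, against 8.29, 4.59, 17.2, 72.8 and 59.8 across those labelled *Mgp*-KO 1 to 5. The libraries labelled *Mgp*-KO 4 and 5 were the only ones above 20 normalized counts, with 45 and 51 reads, while *Mgp*-KO 1 to 3 lay within the wild-type range. The log2 difference was 1.22 (-0.43 to 2.87, limma adjusted p = 0.612; two-sided exact permutation p = 0.206). Without the libraries labelled *Mgp*-KO 4 and 5 it was 0.11. The highest *Inhba* values thus stood in the 2 libraries of that group with 309 and 282 *Mgp* reads, against at most 1 in the other 3.

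*Inhbb* (chr1:119415465-119422248, minus strand) encodes the beta B subunit of activin B, which adipocytes are known to secrete. It had 22.9, 18.7, 24.3, 19.1 and 15.6 normalized counts across the wild-type libraries 1 to 5, against 36.2, 12.2, 46.0, 84.2 and 25.8 across those labelled *Mgp*-KO 1 to 5. The wild-type libraries lay close together, and the group labelled *Mgp*-KO held both the lowest library (*Mgp*-KO 2) and the 4 highest. The log2 difference was 0.75 (-0.22 to 1.71, limma adjusted p = 0.600; two-sided exact permutation p = 0.135). It was 0.43 without the library labelled *Mgp*-KO 4 and 1.10 without *Mgp*-KO 2.

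*Tgfb1*, *Inhba* and *Inhbb* were all highest in the library labelled *Mgp*-KO 4. This library was also the highest for 10 of 10 endothelial markers (*Pecam1*, *Cdh5*, *Kdr* and others), whose sum was 63223 normalized counts there and 19839 to 33769 in the other 9 libraries. Within replicates 1 to 3 the sum was 19839 to 22915 in wild type and 23664 to 27421 in the libraries labelled *Mgp*-KO, without overlap, and within replicates 4 and 5 it was 19869 to 33769 and 31841 to 63223, with overlap. Over all libraries the log2 difference was positive for all 10 markers (median 0.48), limma called none of them, and none of the 10 endothelial markers was at 0 in any library. *Mgp*-KO 4 was also the highest for 4 of 10 progenitor, 4 of 10 mural, 3 of 10 macrophage, 3 of 6 T cell and 2 of 4 Schwann cell markers. Within replicates 4 and 5, the macrophage markers summed to 1549 to 1720.0 in wild type and 1978 to 2491 in the libraries labelled *Mgp*-KO, and within replicates 1 to 3 to 2009 to 2571 and 1734 to 2329, with overlap. The part of these cells' RNA in the 3 genes was not tested.

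The receptors did not differ between the groups by more than their spread. *Tgfbr1* (chr4:47353222-47414931, plus strand), the type I receptor kinase, had 331, 371, 231, 439.7 and 408 normalized counts across the wild-type libraries 1 to 5, against 231, 474, 236, 395 and 327 across those labelled *Mgp*-KO 1 to 5. Each group held libraries near 230 and above 400 normalized counts. Its log2 difference was -0.12 (-0.67 to 0.43).

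*Tgfbr2* (chr9:116084293-116175360, minus strand), the type II receptor that binds the ligand, had 4327, 4224, 5286, 2657 and 3478 normalized counts across the wild-type libraries 1 to 5, against 5234, 6251, 4871, 1918 and 2792 across those labelled *Mgp*-KO 1 to 5. The 4 lowest libraries were replicates 4 and 5 of both groups. The log2 difference between the groups was -0.01 (-0.73 to 0.70), and without the libraries labelled *Mgp*-KO 4 and 5 it was 0.48 (-0.03 to 0.98, limma adjusted p = 0.293).

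*Tgfbr3* (chr5:107106570-107289629, minus strand) encodes betaglycan, a co-receptor that presents TGF-beta and also binds inhibin. It had 1973, 1944, 1955, 1646 and 1068 normalized counts across the wild-type libraries 1 to 5, against 2216, 2576, 2167, 1348 and 1524 across those labelled *Mgp*-KO 1 to 5. Replicates 4 and 5 were again the 4 lowest libraries. The log2 difference was 0.19 (-0.34 to 0.72), and 0.47 (-0.03 to 0.96) without the libraries labelled *Mgp*-KO 4 and 5. The same-strand gene *Gm43422* overlaps its exons. All 3 receptors were highest in the library labelled *Mgp*-KO 2, which also held the lowest *Tgfb2* and *Inhbb* values. That library was the highest for 5 of the 10 skeletal muscle markers and *Mgp*-KO 5 for the other 5 (2 of the 10 were at 0 in at least 1 library), and the part of muscle RNA in these values was not tested.

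Of the receptor-activated SMADs, *Smad2* (chr18:76241580-76310963, plus strand) had the narrowest confidence interval of the 10 genes. It had 436, 437, 480.0, 425 and 414 normalized counts across the wild-type libraries 1 to 5, against 449, 396, 466, 289.8 and 437 across those labelled *Mgp*-KO 1 to 5. The library labelled *Mgp*-KO 4 was the lowest, and the other 9 lay between 396 and 480.0. Its log2 difference between the groups was -0.12 (-0.49 to 0.25).

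*Smad3* (chr9:63646767-63757994, minus strand), which binds DNA directly and carries much of the transcriptional response, varied more. It had 433, 359, 435, 151 and 324 normalized counts across the wild-type libraries 1 to 5, against 371, 181, 323, 228 and 189.9 across those labelled *Mgp*-KO 1 to 5. Wild type 4 was the lowest of all libraries, and the other 4 wild-type libraries lay above all of the other group but *Mgp*-KO 1. Between the groups it differed by -0.36 (-1.05 to 0.33, limma adjusted p = 0.744), by -0.63 without wild type 4 and by -0.25 without the library labelled *Mgp*-KO 2.

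Within replicates 1 to 3, where *Mgp* reads were at or near 0 in the libraries labelled *Mgp*-KO, limma called none of the 10 genes, against 3.54% of all genes tested, and DESeq2 called none against 8.83%. None of the 10 had an unadjusted p under 0.05 in either tool, where 3016 of all genes had one in limma and 3220 in DESeq2. The largest differences in limma were those of *Smad3* (-0.54, -1.16 to 0.07, adjusted p = 0.276), *Inhba* (0.39, -1.08 to 1.86) and *Tgfb3* (-0.38, -0.79 to 0.03, adjusted p = 0.262). *Tgfb1* stood at 0.02 (-0.48 to 0.52) in these 6 libraries. The 3 and 3 libraries did not overlap for 2 of the 10 genes, against 30.6% of all genes tested. These were *Tgfb3*, lower in the libraries labelled *Mgp*-KO, and *Tgfbr3*, higher there by 0.24 (-0.02 to 0.50, adjusted p = 0.257).

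Within replicates 4 and 5, limma called none of the 10, and 0.00% of all genes tested, with 855 genes at an unadjusted p under 0.05. *Inhba* (2.46, 0.88 to 4.05, unadjusted p = 0.00825) and *Tgfb1* (1.14, 0.18 to 2.09, unadjusted p = 0.0262) were the 2 of the 10 at an unadjusted p under 0.05 in limma, both with an adjusted p of 0.679. The 2 and 2 libraries did not overlap for 4 of the 10 genes, with *Tgfb1*, *Inhba* and *Inhbb* higher and *Tgfbr1* lower in the libraries labelled *Mgp*-KO, against 41.6% of all genes tested. Both libraries labelled *Mgp*-KO in this set hold *Mgp* reads, as given above.

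Whether the difference between the groups itself differed between the sets was tested with an interaction term in limma. None of the 10 genes was called, where limma called 0.00729% of all genes tested (1 gene, *Mgp*). DESeq2 called none of the 10 either, against 0.406% of all genes (61 genes). *Tgfb1* had the smallest unadjusted p of the 10, with a difference larger by 1.12 (0.16 to 2.08) in replicates 4 and 5 than in replicates 1 to 3 (unadjusted p = 0.0270, adjusted p = 0.466). *Inhba* (2.08, -0.15 to 4.30, adjusted p = 0.483) and *Tgfbr2* (-0.63, -1.36 to 0.09, adjusted p = 0.497) followed.

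**Figure D4:**
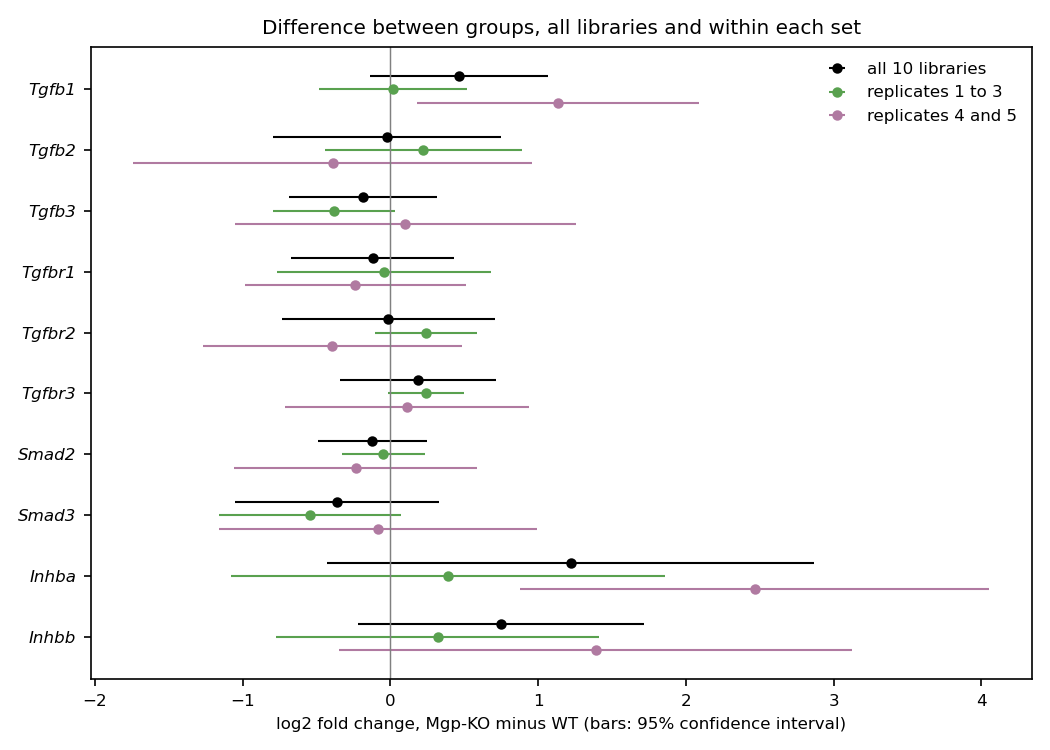
Log2 fold change of the 10 genes, libraries labelled *Mgp*-KO minus wild type, with 95% confidence intervals from limma, over all 10 libraries (black), within replicates 1 to 3 (green) and within replicates 4 and 5 (purple). The intervals over all libraries include 0 for every gene, and in replicates 4 and 5 those of *Tgfb1* and *Inhba* lie above 0.

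*Tgfbr2* and *Tgfbr3* differed between the sets of libraries, as did 38.2% of all genes tested. With the group kept in the model, *Tgfbr2* was lower in replicates 4 and 5 by a log2 difference of -0.91 (-1.32 to -0.50, limma adjusted p = 0.00335) and *Tgfbr3* by -0.63 (-0.94 to -0.31, adjusted p = 0.00620), while *Inhba* was higher by 1.73 (0.47 to 2.99, adjusted p = 0.0337). *Inhba* passed the filter on low values only through replicates 4 and 5, so its call is not independent of the filter. These were the 3 of 10 genes called, where 38.2% of all genes tested were, and DESeq2 called the same number, against 32.7% of all genes. *Tgfbr2* and *Tgfbr3* had no overlap between the 6 and 4 libraries, as had 25.2% of all genes tested. Both were also called with any 1 of the 10 libraries left out, whereas *Inhba* lost its call without wild type 3, wild type 4, or the library labelled *Mgp*-KO 1, 2, 4 or 5. *Smad3* had an adjusted p of 0.0628 with all libraries and was called without wild type 5 or the library labelled *Mgp*-KO 2, and *Tgfbr1* was called without *Mgp*-KO 2. In *Inhba* the sets overlapped within wild type and not within the libraries labelled *Mgp*-KO. The sets also differ in depth and mitochondrial ribosomal RNA as given above, and what the sets stand for is not given in the labels, so these cannot be told apart.

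As a description of likeness, the genes whose levels followed *Tgfb1* and *Inhbb* most closely over the 10 libraries were listed after the mean of each set had been removed. For *Tgfb1* they were *Itgax*, the integrin subunit CD11c of myeloid cells (r = 0.98, 4.40 to 30.8 normalized counts), the gene listed as 4-Sep (r = 0.98) and *Epsti1*, a gene known to respond to interferon (r = 0.98, 10.4 to 35.6 normalized counts). For *Inhbb* they were *Efnb2*, the ephrin B2 ligand of arterial endothelium (r = 0.98, 379 to 1363 normalized counts), *Grk6* (r = 0.97) and *Pax5* (r = 0.96, 7.65 to 48.6 normalized counts). Without removing the means, r was 0.96 for *Itgax*, 0.71 for 4-Sep, 0.95 for *Epsti1*, 0.81 for *Efnb2*, 0.52 for *Grk6* and 0.92 for *Pax5*. The points are libraries that share depth and tissue composition, and these genes were the closest among all those tested. *Tgfb1* and *Inhbb* were both highest in the library labelled *Mgp*-KO 4, and r without that library was not computed.

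The rest of the pathway was followed in 59 further genes in 7 lists, chosen by role, of which 57 were found and 52 passed the filter. None of the 52 was called over all 10 libraries by limma, and 11 had an unadjusted p under 0.05, as had 1421 of the 13714 genes tested. DESeq2 called 2 of the 57, *Vasn* and *Postn*, against 2.26% of all genes. With a term for the sets, limma called 4 of the 52: *Skil* and *Postn* were lower, and *Vasn* and *Inha* higher, in the libraries labelled *Mgp*-KO, against 2.36% of all genes. *Inha* passed the filter only through the group where it was high, which leaves 3 calls that did not. DESeq2 with that term called 7 of the 57, against 7.42%, which added *Pmepa1*, *Dcn* and *Ltbp3*. Within replicates 1 to 3 limma called 4, with *Skil*, *Pmepa1* and *Ltbp3* lower and *Vasn* higher, against 3.54% of all genes, and DESeq2 called 10 of the 57, against 8.83%. The median log2 difference of the 52 was -0.02 over all libraries and 0.11 within replicates 1 to 3, against 0.03 and 0.02 over all genes tested. The limma calls with the set term depended on single libraries: none of the 52 was called without wild type 1, wild type 2 or the library labelled *Mgp*-KO 1. There was 1 call without wild type 5 (*Skil*) or *Mgp*-KO 3 (*Postn*), 2 without wild type 3, *Mgp*-KO 2 or *Mgp*-KO 5 (*Skil* and *Postn* each time), 4 without wild type 4 (*Skil*, *Pmepa1*, *Vasn* and *Postn*) and 7 without *Mgp*-KO 4. Within replicates 1 to 3, none was called without wild type 1 or wild type 2, 1 without wild type 3 (*Skil*) or *Mgp*-KO 1 (*Pmepa1*), 2 without *Mgp*-KO 3 (*Pmepa1* and *Vasn*) and 3 without *Mgp*-KO 2 (these and *Ltbp3*). Between the sets, 21 of the 52 were called (6 higher and 15 lower in replicates 4 and 5), beside the share of all genes given above. The groups did not overlap over all 10 libraries for 1 of the 52 (*Bambi*), against 3.50% of all genes. Within replicates 1 to 3 they did not overlap for 20 of the 52, against 30.6% of all genes. Within replicates 4 and 5 this held for 16, against 41.6%.

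*Skil* encodes SnoN, a repressor that binds SMAD2, SMAD3 and SMAD4 and is itself induced by the pathway. It had 751, 836, 434, 1249 and 919 normalized counts across the wild-type libraries 1 to 5, against 281, 279, 312, 664 and 442 across those labelled *Mgp*-KO 1 to 5. All 3 of the libraries labelled *Mgp*-KO 1 to 3 lay below every wild-type library, and *Mgp*-KO 4 and 5 did not. *Skil* fell, with a log2 difference of -1.09 (-1.52 to -0.65) with the set term (limma adjusted p = 0.0205), against an adjusted p of 0.219 without it.

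*Pmepa1*, which encodes a membrane protein that holds SMAD2 and SMAD3 back from the receptor and is likewise a known target of TGF-beta, had 1773, 1755, 2013, 2064 and 7408 normalized counts across the wild-type libraries 1 to 5, against 260.0, 74.2, 253, 3704 and 2598 across those labelled *Mgp*-KO 1 to 5. The libraries labelled *Mgp*-KO 1 to 3 lay far below wild type, and *Mgp*-KO 4 and 5 lay within its range. The 4 Schwann cell markers summed to 1187 to 1902 normalized counts in wild type 1 to 3, 496 to 724 in *Mgp*-KO 1 to 3, 1926 to 2574 in wild type 4 and 5 and 2809 to 3352 in *Mgp*-KO 4 and 5, none was at 0 in any library, and their part in *Pmepa1* was not tested. Within replicates 1 to 3 it fell, with a log2 difference of -3.43 (-4.47 to -2.39, limma adjusted p = 0.0136), whereas within replicates 4 and 5 the difference was -0.33 (-1.81 to 1.14). The interaction between the sets had an unadjusted p of 0.00385 and an adjusted p of 0.455 in limma and 0.0868 in DESeq2, so it did not pass. *Ppm1a*, a phosphatase for SMAD2 and SMAD3, had 2870.4 ± 424 normalized counts in wild type and 2627 ± 136 in the other group (SD, n = 5), with a log2 difference of -0.12 (-0.47 to 0.23). The 8 tested intracellular inhibitors had a median log2 difference of -0.11, with 2 above and 6 below 0.

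*Vasn*, which encodes vasorin, a membrane protein that binds TGF-beta, had 184, 142, 112, 108 and 36.3 normalized counts across the wild-type libraries 1 to 5, against 586, 1022, 339, 117 and 150.1 across those labelled *Mgp*-KO 1 to 5. It rose by a log2 difference of 1.64 (0.84 to 2.44) with the set term (limma adjusted p = 0.0418, and 0.343 without it) and by 2.03 (1.14 to 2.92, adjusted p = 0.0367) within replicates 1 to 3. The 3 highest libraries were *Mgp*-KO 1 to 3, and those labelled *Mgp*-KO 4 and 5 lay above wild type 4 and 5 but within the range of wild type 1 to 3. The exons of *Vasn* overlap those of *Dnaja3*. *Bambi*, a pseudoreceptor that lacks a kinase domain, had 39.3, 38.9, 42.6, 41.0 and 31.1 normalized counts across the wild-type libraries 1 to 5, against 52.0, 82.6, 62.4, 66.4 and 49.2 across those labelled *Mgp*-KO 1 to 5, and its log2 difference was 0.66 (0.17 to 1.16, limma adjusted p = 0.301). *Dcn*, which encodes the proteoglycan decorin that sequesters TGF-beta, had 2370.0, 2062, 2241, 4216 and 3577 normalized counts across the wild-type libraries 1 to 5, against 3137, 4004, 2451, 9156 and 5090.2 across those labelled *Mgp*-KO 1 to 5, with a difference of 0.62 (limma adjusted p = 0.580, and 0.0239 in DESeq2 with the set term). Without the libraries labelled *Mgp*-KO 4 and 5 the *Dcn* difference was 0.17 (-0.43 to 0.78). All 5 of the extracellular and membrane inhibitors had a positive log2 difference (median 0.70), as had 7228 of the 13714 genes tested. Of the 5, limma called 0 over all libraries and 1 with the set term, against 0.0656% and 2.36% of all genes.

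Among the other ligands, *Inha* encodes the inhibin alpha subunit, which pairs with the products of *Inhba* and *Inhbb* to form inhibins, antagonists of activin. It had 4.29, 5.99, 4.41, 0 and 0 normalized counts across the wild-type libraries 1 to 5, against 14.3, 72.7, 17.2, 4.86 and 4.69 across those labelled *Mgp*-KO 1 to 5. Wild type 4 and 5 were at 0 reads, where a count of 0 allows up to 4.40 and 5.19 normalized counts (3 reads, counting error only), and the library labelled *Mgp*-KO 2 was far above the rest. The skeletal muscle markers summed to 48949.5 normalized counts in that library and 42317 in *Mgp*-KO 5, and their part in *Inha* was not tested. The log2 difference of *Inha* was 2.35 (1.20 to 3.49) with the set term (limma adjusted p = 0.0423), a fitted value that depends on the pseudocount at such low counts. *Inha* passed the filter on low values only through the libraries labelled *Mgp*-KO (mean 22.8 ± 28.5, against 2.94 ± 2.77 in wild type), so this call is not independent of the filter. *Gdf11*, a ligand that signals through SMAD2 and SMAD3, had 48.1 ± 11.6 and 42.5 ± 9.63 normalized counts in the 2 groups.

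The latency and activation list had 9 tested genes. *Ltbp3*, which encodes a latent TGF-beta binding protein that anchors the ligand to the matrix, had 3086, 3235, 3663, 1454 and 2331 normalized counts across the wild-type libraries 1 to 5, against 2009, 1512, 2201, 1743 and 1062 across those labelled *Mgp*-KO 1 to 5. Within replicates 1 to 3 all libraries labelled *Mgp*-KO lay below wild type, and it fell, with a log2 difference of -0.82 (-1.19 to -0.44, limma adjusted p = 0.0415), a call that was lost when any 1 of the 6 libraries but *Mgp*-KO 2 was left out. Over all 10 libraries its difference was -0.66 (limma adjusted p = 0.435). *Itgb8*, a subunit of the integrin that releases latent TGF-beta, was low at 14.2 ± 5.09 and 6.05 ± 4.06 normalized counts in the 2 groups, with a log2 difference of -1.21 (-2.27 to -0.15, adjusted p = 0.407), and it passed the filter only through wild type. *Nrros*, the milieu molecule of myeloid cells, had 89.5 ± 20.0 and 130.0 ± 39.7 (log2 difference 0.51, adjusted p = 0.519).

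The other receptors and the SMAD partners held no call with or without the set term in limma. *Acvr1b*, the activin type I receptor, had 150.1 ± 37.1 normalized counts in wild type and 199.7 ± 69.0 in the other group (log2 difference 0.39, -0.20 to 0.97). *Acvr2b*, an activin type II receptor, had 54.5 ± 15.7 and 79.0 ± 25.1 (difference 0.51, -0.16 to 1.18). *Tgfbrap1*, which encodes a receptor-associated adaptor, had 747 ± 131 and 655 ± 232 (difference -0.26, -0.84 to 0.33). Of the partners, *Smad4* had 739.6 ± 125 and 976 ± 397 (difference 0.33, -0.20 to 0.87, and 0.13 without the library labelled *Mgp*-KO 4, its highest at 1649.5), *Trim33* 381 ± 57.5 and 429 ± 93.6 (0.16, -0.27 to 0.58) and *Zfyve9*, the SARA anchor of SMAD2 and SMAD3, 572 ± 75.0 and 557 ± 118 (-0.06, -0.47 to 0.36). Every one of these intervals, from the fit without the set term, includes 0. With the set term that of *Acvr1b* was 0.02 to 0.75 (limma adjusted p = 0.230), and the others still included 0.

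The 18 target genes were split, with 9 above and 9 below 0 and a median log2 difference of 0.08. *Postn*, which encodes periostin of the matrix, had 2949, 2949, 2103, 3931 and 4249.9 normalized counts across the wild-type libraries 1 to 5, against 1595, 1250.0, 1839, 2143 and 2295 across those labelled *Mgp*-KO 1 to 5. It fell, with a log2 difference of -0.82 (-1.15 to -0.48) with the set term (limma adjusted p = 0.0216, and 0.225 without it), and only wild type 3 lay within the range of the other group. *Col3a1*, a fibrillar collagen gene, had 14754 ± 7131 and 7232 ± 3283 normalized counts (log2 difference -1.04, -1.97 to -0.11, adjusted p = 0.421). *Ctgf*, the matricellular target also named *Ccn2*, had the opposite sign, with 127 ± 37.2 and 227 ± 83.8 (difference 0.81, 0.16 to 1.47, adjusted p = 0.346). Markers of progenitors and fibroblasts, 10 genes that include *Col3a1*, *Col1a1* and *Dcn* of these lists, summed to 17199 to 48134 normalized counts in wild type and 11040.0 to 29699.5 in the libraries labelled *Mgp*-KO, with no marker at 0 in any library. Of these 10 markers, 4 had a positive and 6 a negative log2 difference. Without *Col1a1* and *Col3a1*, which are target genes themselves, the other 8 summed to 4099 to 7340.5 in wild type and 4336 to 14438 in the other group. Their part in the matrix targets was not tested.

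**Figure D5:**
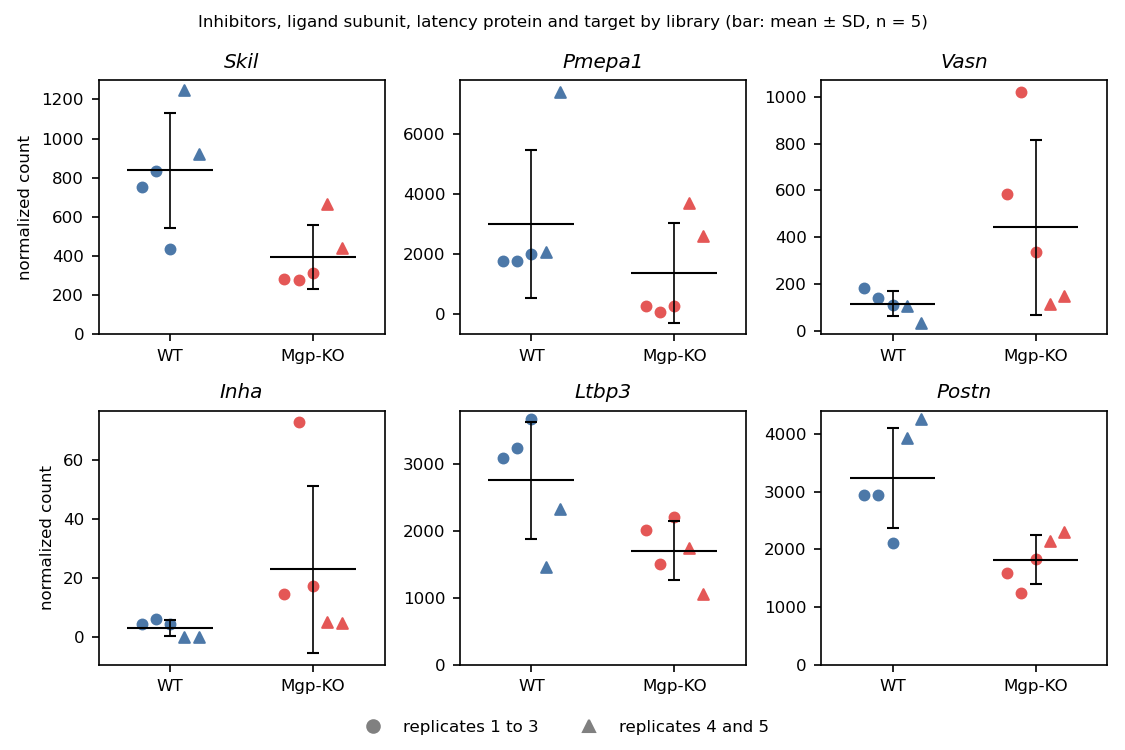
Normalized count of 6 genes of the pathway lists in every library; circles are replicates 1 to 3, triangles replicates 4 and 5, and bars give mean ± SD (n = 5). The libraries labelled *Mgp*-KO 1 to 3 lie below wild type 1 to 3 in *Skil*, *Pmepa1*, *Ltbp3* and *Postn* and above them in *Vasn* and *Inha*. In these 3 and 3 libraries the groups did not overlap for 30.6% of all genes tested.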

How the data were processed

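RNA of 5 wild-type and 5 *Mgp*-KO labelled iBAT samples was sequenced by the authors as single 50-base reads. Per the study's methods and the submitters' processing notes, reads were aligned to mm10 with STAR 2.5.3a, counted per gene and divided by DESeq2 1.38.3 size factors. The annotation release and strand setting are not given in the sources used here. The authors deposited these normalized counts (a signal on a linear scale, 1 column per library). Steps in the values gave back whole reads for 100% of them (largest deviation 0.00181 reads), and edgeR 4.0.16 and DESeq2 1.42.0 were run on those reads as alternatives. The main test was limma 3.58.1 on log2(normalized count + 1) with Benjamini-Hochberg adjustment over the 13714 genes with a mean of at least 10, checked on simulated data. Intervals cover 95%. A floor of 3 reads corresponds to 2.15 to 2.46 normalized counts in replicates 1 to 3 and 3.52 to 5.19 in replicates 4 and 5. Named pathway genes are the 3 of each list with the smallest p over all libraries (2 where only 2 passed), and likeness is given for the 2 of the 10 genes with the smallest p. The 10 genes and all lists were chosen with earlier results of these data known.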

Additional observations from a re-analysis of the deposited data

Results flagged for a closer look

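In 60 groups of 5 libraries examined for a single value far from the others (Dixon's criterion), 3 stood out, and chance alone flags about 1 in 20 such groups. *Smad3* was 151 normalized counts in wild type 4, against 324 to 435 in the other wild-type libraries. *Smad4* was 956 in the same library, which was the highest of wild type. *Pmepa1* was 7408 in wild type 5, against 1755 to 2064 in wild type 1 to 4.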

How the results depend on the processing

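None of the 10 genes was called between the groups under any alternative tried. The labels do not say whether the replicate numbers pair the libraries, and correlations cannot settle it. Same-number correlations were 0.527, 0.0559, 0.327, 0.523 and 0.514 for numbers 1 to 5. Wild type 1, 2 and 3 correlated best with another number, and wild type 4 and 5 with their own. After removing set means the same-number values were 0.0417, -0.202, -0.398, 0.223 and 0.223. The last 2 are equal by construction, since each group holds 2 libraries in that set. The study's methods speak of pairs of mice and do not tie them to the numbers. A replicate block in limma gave 0 calls among the 10 and 2 in the pathway lists (*Skil* and *Vasn*), with 270 over all genes against 9 without the block. DESeq2 with the block gave 9 pathway calls, with 921 over all genes. Pathway calls, 0 in limma over all libraries, were 4 with the set term and 4 within replicates 1 to 3. They were 3 without *Mgp*-KO 4 and 5, where 267 of the 13714 genes tested were called. There were 4 in edgeR with the set term, 2 in DESeq2 and 7 in DESeq2 with the set term. DESeq2 gave 10 within replicates 1 to 3. Leaving out 1 library at a time, a choice made after seeing the data for these fits, gave 0 to 7 pathway calls with the set term, 0 to 3 within replicates 1 to 3, and 2 to 4 of the 10 genes between the sets. The fitted log2 difference changed sign in genes near 0, of which none was called. *Tgfb2* became 0.22 within replicates 1 to 3 (range -0.16 to 0.27 leaving out 1 library), *Tgfb3* 0.10 within replicates 4 and 5, *Gdf11* 0.017 and *Tgfbrap1* 0.16 without *Mgp*-KO 4 and 5. *Tgfbr2* became 0.24 within replicates 1 to 3, 0.48 without *Mgp*-KO 4 and 5, 0.037 with quantile normalization, 0.070 in edgeR and 0.077 in DESeq2 (range -0.19 to 0.24 leaving out 1 library). *Zfyve9* became 0.16 within replicates 1 to 3 and 0.18 without *Mgp*-KO 4 and 5 (range -0.13 to 0.032 leaving out 1 library). By longest transcript, the *Tgfb1* share was 79.5% in wild type and 86.0% in the other group, with *Tgfb3* at 15.7% and 10.8%. The cause of these shifts was not tested, other than that fewer libraries entered some fits. Depth limits *Inhba*, *Inhbb*, *Tgfb2*, *Inha*, *Gdf11* and *Itgb8*, which had fewer than 100 reads in every library.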

Other observations

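The lists held 5 genes under the filter on low values. *Mstn*, which encodes myostatin of skeletal muscle, had 6.92 normalized counts in wild type 5, 11.5 in the library labelled *Mgp*-KO 2, 12.9 in *Mgp*-KO 5 and 1.47 in wild type 3, and 0 in the other 6 libraries. These 4 libraries were also the ones with the highest sums of skeletal muscle markers (48949.5 and 42317 in *Mgp*-KO 2 and 5, 7421 in wild type 3 and 5119 in wild type 5). *Nodal* was at most 7.03, *Itgb6* at most 11.7 and *Foxh1* at most 4.93 normalized counts, a few reads each, and *Tgif2* was 1.17 to 19.4. *Fst* (chosen after its values were seen), which encodes follistatin, a secreted activin inhibitor, had 124, 133, 156, 155 and 138 normalized counts in wild type 1 to 5, against 127, 487, 87.9, 468 and 246 in those labelled *Mgp*-KO 1 to 5, with 3 of the latter above all of wild type and 2 within or below its range.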
